A study of Mus musculus with 2 samples.

Results

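The 10 genes described here are Stab1, Stab2, Lyve1, Clec4g, Mrc1, Oit3, Gata4, Dnase1l3, Wnt2 and Rspo3, which mark the endothelium of the liver sinusoid or encode ligands of the Wnt pathway that this endothelium secretes. They were chosen by name, and all 10 were matched by Ensembl identifier to the GENCODE M21 annotation among the 38320 gene entries of each library. Hepatic stromal cells were isolated from male mice of strain C57/Bl6, used at 6 to 8 weeks of age, that had received carbon tetrachloride (CCl4), a hepatotoxin, for 5 weeks. The control group, Foxf1 fl/fl, carried floxed alleles of the Forkhead transcription factor Foxf1 and no Cre. The other group, αSMACreER;Foxf1 fl/fl, carried the same floxed alleles and a Cre recombinase driven by the α-smooth muscle actin promoter and activated by tamoxifen (40 mg/kg on 3 days of each week from week 2), so deletion was directed to cells in which that promoter is active, such as myofibroblasts. The study describes livers of both genotypes after CCl4 and tamoxifen. Liver cells that adhered to a dish within 2 h were collected, and RNA was pooled within each genotype, from a number of mice that is not given. So there was 1 library per genotype and no difference below has a replicate check or a p-value.

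Sinusoidal endothelial cells line the fenestrated capillaries between the hepatocyte plates. They clear hyaluronan, collagen fragments, glycoproteins and immune complexes from the blood through scavenger receptors, and cells near the central vein secrete WNT2, WNT9B and R-spondin 3, which maintain the gene programme of central hepatocytes. The transcription factor GATA4 specifies sinusoidal against continuous capillary endothelium. In chronic injury these cells can lose fenestrae and acquire features of ordinary capillaries, which is called capillarization.

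The promoters below are shown because they belong to members whose values are set against each other below, namely the paralogues Stab1 and Stab2, the lectin gene Clec4g and the ligand gene Wnt2. RefSeq promoters (build GRCm38.p6) were held for 5 of the 10 members. Only bases that lie before both the RefSeq and the GENCODE start are printed, 5′ to 3′ on the strand of the gene, and capitals mark a GATA motif (AGATAA or AGATAG or TGATAA or TGATAG, on either strand) or a forkhead motif (TAAACA on either strand). The Stab1 sequence is chr14:31168642-31168891, the Stab2 sequence chr10:87008026-87008192, the Clec4g sequence chr8:3720652-3720901 and the Wnt2 sequence chr6:18030586-18030695, all on the minus strand.
Stab1: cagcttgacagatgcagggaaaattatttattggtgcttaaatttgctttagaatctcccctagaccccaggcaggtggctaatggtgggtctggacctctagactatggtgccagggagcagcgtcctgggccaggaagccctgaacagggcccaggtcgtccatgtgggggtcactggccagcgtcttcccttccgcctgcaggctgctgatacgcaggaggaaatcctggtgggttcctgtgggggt
Stab2: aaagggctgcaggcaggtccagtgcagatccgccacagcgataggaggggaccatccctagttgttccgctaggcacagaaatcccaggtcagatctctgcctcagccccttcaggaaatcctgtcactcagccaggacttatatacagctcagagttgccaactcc
Clec4g: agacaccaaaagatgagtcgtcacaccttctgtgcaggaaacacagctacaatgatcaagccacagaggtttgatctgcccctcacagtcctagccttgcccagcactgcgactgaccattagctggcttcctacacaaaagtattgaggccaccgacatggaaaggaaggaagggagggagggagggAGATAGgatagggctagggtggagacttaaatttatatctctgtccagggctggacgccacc
Wnt2: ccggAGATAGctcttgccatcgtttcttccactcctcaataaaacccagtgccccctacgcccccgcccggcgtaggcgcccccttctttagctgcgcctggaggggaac
Clec4g held 1 GATA match, which began 62 bases before the RefSeq start, and Wnt2 held 1, which began 246 bases before it. No GATA match was found in these windows of Stab1 and Stab2. A GATA match was present in 26.5% of all promoter entries over 250 bases (the length for Stab1 and Clec4g), in 20.4% over 167 bases (Stab2) and in 14.3% over 110 bases (Wnt2). No forkhead match was found in any of the windows, against 12.0% of promoter entries over 250 bases, 8.9% over 167 bases and 6.1% over 110 bases. The Stab2 window also overlaps the antisense gene Gm16271 and the Clec4g window the antisense gene Gm16553. These matches describe letters only, since no binding data were analysed here.

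Values are FPKM (fragments per kilobase of transcript, scaled to library size) as deposited, a unit in which levels can be compared between genes. The spacing of the lowest values gave roughly 9747686 mapped reads for Foxf1 fl/fl and 11163426 for αSMACreER;Foxf1 fl/fl, and since 51.0% and 50.6% of these values were within 0.1 of a whole number of reads, read numbers below are approximate. Intervals at 95% were built from these read numbers and cover counting error only, not differences between mice. The adherent cells were mixed. The 16 Kupffer cell and macrophage markers summed to 14939 FPKM in Foxf1 fl/fl and 12204 in αSMACreER;Foxf1 fl/fl, the 10 hepatocyte markers to 5007 and 2126, the 21 pan-endothelial markers to 1129 and 1074, and the 10 stellate cell and myofibroblast markers to 324 and 466. None of these markers was listed at 0 in either library. The labelled cell type was stromal. Of the stellate cell and myofibroblast markers the highest were Dcn (127 and 186), Col3a1 (115 and 164) and Col1a1 (70.2 and 103). Des was at 1.70 and 3.29, Acta2 at 7.77 and 5.65, Pdgfrb at 1.03 and 1.43, and Lrat and Ngfr at 0.128 FPKM or less. Foxf1 itself was not analysed here.

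The sinusoidal genes were present in both libraries, and 9 of the 10 passed a mean of 1 FPKM. Stab1 was the highest member, at 417 FPKM in Foxf1 fl/fl and 303 in αSMACreER;Foxf1 fl/fl, which placed it above 97.8% and 97.4% of the genes that passed. Clec4g followed with 254 and 187. Oit3, Dnase1l3, Mrc1, Lyve1 and Stab2 lay between 64.0 and 103 FPKM in Foxf1 fl/fl and between 77.3 and 125 in αSMACreER;Foxf1 fl/fl, near the level of Pecam1 (93.3 and 96.6), the adhesion molecule found on all endothelium. Wnt2 and Gata4, a ligand and a transcription factor, lay between 9.68 and 14.3 FPKM over both libraries, and Rspo3 was below 1 FPKM in both libraries. The order of levels was the same in both libraries except that Stab2 and Lyve1 exchanged places. In Foxf1 fl/fl these 2 differed by less than counting error (Lyve1 over Stab2, 1.03), and all other neighbours in the order differed by more in both libraries.

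**Figure D1:**
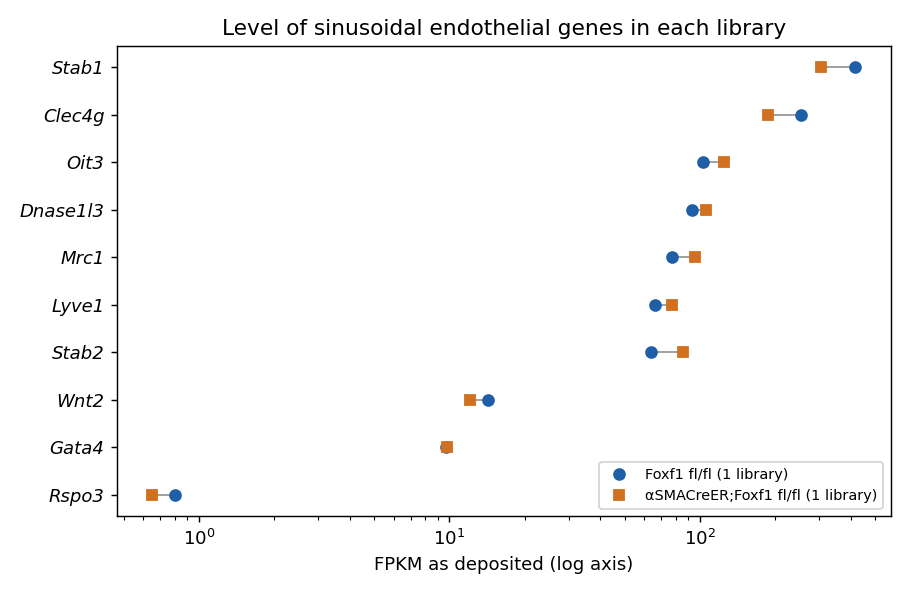
FPKM as deposited (log axis) of the 10 genes in the Foxf1 fl/fl library (circles) and the αSMACreER;Foxf1 fl/fl library (squares), with 1 library per genotype and so no error bars. Stab1 and Clec4g lie highest and to the left in αSMACreER;Foxf1 fl/fl, Oit3, Dnase1l3, Mrc1, Lyve1 and Stab2 lie to the right in it, and Rspo3 is below 1 in both.

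For the comparison of genotypes, αSMACreER;Foxf1 fl/fl values were divided by 1.02, the median ratio of genes with at least 1 FPKM in both libraries, and differences are log2(FPKM + 0.1) of αSMACreER;Foxf1 fl/fl minus Foxf1 fl/fl, which compresses differences of genes with low FPKM. Of the 9 members that passed the mean of 1 FPKM, 0 were higher by 1.5-fold or more in αSMACreER;Foxf1 fl/fl and 0 were lower by as much, while 12.9% of all 12861 genes that passed were higher by that much and 13.2% lower. With the libraries scaled to an equal FPKM sum, which moved the median of all genes to 0.21, these shares were 21.9% and 8.72%, and Stab2 passed 1.5-fold at 0.60. The 9 members had a median difference of 0.16, from −0.49 for Stab1 to 0.40 for Stab2, and all genes that passed had a median of 0.0058. In absolute size the median was 0.26 for the members and 0.33 for all genes, and 33.4% of all genes differed by at least as much as Stab1, the member farthest from 0. In bulk RNA a lower value cannot separate fewer cells of a type from less RNA per cell.

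**Figure D2:**
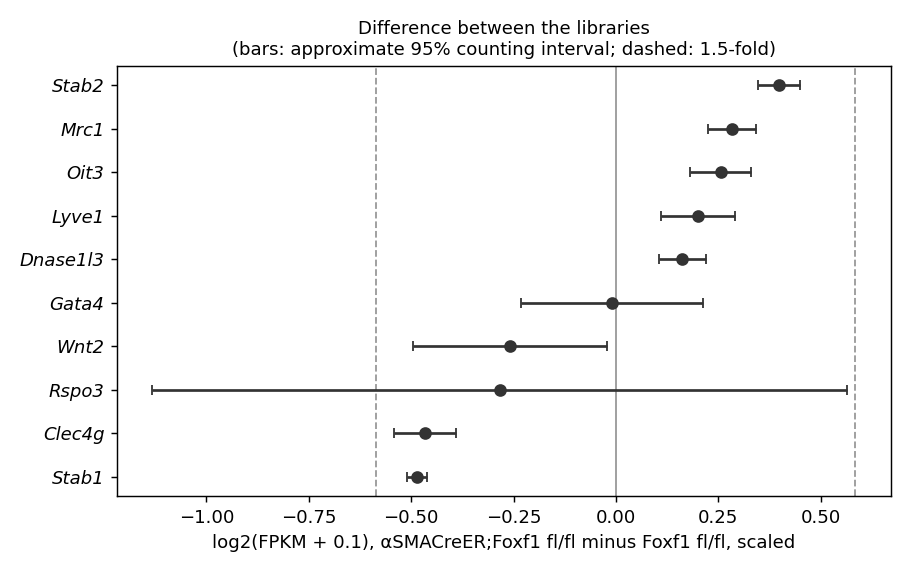
Difference between the libraries in log2(FPKM + 0.1), αSMACreER;Foxf1 fl/fl minus Foxf1 fl/fl after scaling, for the 10 genes, with approximate 95% counting intervals as bars and 1.5-fold as dashed lines. All points lie between the dashed lines, from −0.49 (Stab1) to 0.40 (Stab2), and the wide bar of Rspo3 reflects about 21 to 23 reads.

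The endocytic receptors differed in opposite directions. Stab1 (ENSMUSG00000042286, chr14:31139013-31168641 of GRCm38, minus strand) encodes stabilin-1, a giant scavenger receptor of sinusoidal endothelium and of some macrophages. It was at 417 FPKM in Foxf1 fl/fl and 303 in αSMACreER;Foxf1 fl/fl, a difference of −0.49 (counting interval −0.51 to −0.46), or 1.40-fold lower. Stab2 (ENSMUSG00000035459, chr10:86841198-87008025, minus strand) encodes its paralogue stabilin-2, the main hyaluronan clearance receptor of the sinusoid. It was at 64.0 and 85.9 FPKM, a difference of 0.40 (0.35 to 0.45), or 1.32-fold higher. The ratio of Stab1 to Stab2 within a library, from which the scaling between libraries drops out, was 6.52 in Foxf1 fl/fl and 3.53 in αSMACreER;Foxf1 fl/fl, a log2 change of −0.88 (−0.94 to −0.83). Their longest transcripts were of nearly equal length, 7999 and 8228 bases. The paralogues thus differed between the libraries in opposite directions by more than counting error, although Stab2 was at −0.093 once the trend with transcript length was removed.

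Lyve1 (ENSMUSG00000030787, chr7:110850607-110863239, minus strand) encodes a hyaluronan receptor of sinusoidal and lymphatic endothelium. It was at 66.1 and 77.3 FPKM, a difference of 0.20 (0.11 to 0.29). Mrc1 (ENSMUSG00000026712, chr2:14229392-14332057, plus strand) encodes the mannose receptor of sinusoidal endothelium and macrophages, and it was at 77.2 and 95.7, a difference of 0.28 (0.23 to 0.34). Both were slightly higher in αSMACreER;Foxf1 fl/fl, although Mrc1 was at 0.036 with the length trend removed. Clec4g (ENSMUSG00000074491, chr8:3707064-3720651, minus strand) encodes the C-type lectin LSECtin, which is largely restricted to sinusoidal endothelium in the liver. At 254 and 187 FPKM, it differed by −0.47 (−0.54 to −0.39), or 1.38-fold lower. This was close to the difference of Stab1 before adjustment for transcript length. With the length trend removed Stab1 was at −0.98, whereas Clec4g lay between −0.49 and −0.13 over all alternatives. The ratio of Clec4g to Stab2 was 3.97 in Foxf1 fl/fl and 2.18 in αSMACreER;Foxf1 fl/fl. Genes of the length of Clec4g had a median difference of −0.30, and genes of the length of Stab2 one of 0.49. The part of transcript length in this ratio was not tested.

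Oit3 and Dnase1l3 encode secreted proteins of other kinds. Oit3 (ENSMUSG00000009654, chr10:59422958-59441778, minus strand) encodes a zona pellucida domain protein and had 103 and 125 FPKM, a difference of 0.26 (0.18 to 0.33). Dnase1l3 (ENSMUSG00000025279, chr14:7964533-7994573, minus strand) encodes a nuclease that digests DNA in chromatin of dying cells, and it had 93.2 and 106, a difference of 0.16 (0.10 to 0.22). Both were somewhat higher in αSMACreER;Foxf1 fl/fl, beyond counting error and under 1.5-fold, and Dnase1l3 was at −0.035 with the length trend removed. Dnase1l3 was the highest of the 6 DNase genes in both libraries. Of these, 4 passed 1 FPKM, and 0 were higher and 1 was lower by 1.5-fold, against 12.9% and 13.2% of all genes. The lower gene was the lysosomal Dnase2a at 74.1 and 47.4 FPKM (1.59-fold), which was at −0.47 with an equal FPKM sum. Dnase1l1 was at 29.9 and 31.5, and Dnase1, the digestive nuclease, at 0.638 and 0.496.

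Gata4 (ENSMUSG00000021944, chr14:63198922-63271692, minus strand) was at 9.68 FPKM in Foxf1 fl/fl and 9.79 in αSMACreER;Foxf1 fl/fl. The difference was −0.0099, with an interval from −0.23 to 0.21 on about 302 and 350 reads, so a change of 1.5-fold lay outside counting error in these libraries. Stellate cells also transcribe Gata4 in liver, and the libraries do not separate the cell types. Of the 6 GATA genes, 4 passed 1 FPKM and 0 of these passed 1.5-fold, against 12.9% of all genes higher and 13.2% lower by as much. Gata6, the relative nearest to Gata4 in level, had 8.12 and 10.4, below Gata4 in Foxf1 fl/fl and above it in αSMACreER;Foxf1 fl/fl. Gata3 had 4.57 and 5.12, and Gata2 had 3.63 and 4.16. Gata4 over Gata6 was 1.19 in Foxf1 fl/fl and 0.940 in αSMACreER;Foxf1 fl/fl, a log2 change of −0.34 (−0.65 to −0.033).

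Wnt2 (ENSMUSG00000010797, chr6:17988940-18030585, minus strand) was the most abundant of the 19 Wnt ligand genes in both libraries. It was at 14.3 FPKM in Foxf1 fl/fl and 12.1 in αSMACreER;Foxf1 fl/fl, a difference of −0.26 (−0.50 to −0.021), or 1.20-fold lower, on about 286 and 278 reads, and it turned to 0.080 when the libraries were scaled to the macrophage list. Relative to Pecam1 it went from 0.153 to 0.125. Wnt11 had 5.39 and 5.55 FPKM and Wnt4 had 3.90 and 3.61, and no other Wnt gene passed 1 FPKM. Of the ligand genes that passed, 0 of 3 were past 1.5-fold, against 12.9% of all genes higher and 13.2% lower by as much. Wnt9b, the other central ligand, had 0.517 and 0.627, a difference of 0.21 within counting error, and 5 Wnt genes were listed at 0 in both libraries. Also below the filter, Wnt5a was higher in αSMACreER;Foxf1 fl/fl (0.055 and 0.744 FPKM, about 4 and 57 reads). Its difference was 2.42 (0.99 to 3.85). Wnt6 was lower (0.798 and 0.103, about 15 and 2 reads), a difference of −2.16 (−4.04 to −0.27). The intervals of the other ligands below the filter held 0.

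Rspo3 (ENSMUSG00000019880, chr10:29452416-29535867, minus strand) encodes a secreted protein that keeps Wnt receptors at the cell surface. It was at 0.801 and 0.651 FPKM, about 23 and 21 reads, below the mean of 1 FPKM required of other genes. The difference of −0.28 had an interval from −1.13 to 0.56, which holds 0 and 1.5-fold lower, so a difference was not detectable at this depth. Wnt2 was 17.8 times as high as Rspo3 in Foxf1 fl/fl and 18.6 times in αSMACreER;Foxf1 fl/fl. Among the R-spondins, Rspo1 had 1.94 and 2.39 FPKM, and Rspo2 and Rspo4 were listed at 0 in both libraries.

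Receptors and inhibitors of the Wnt pathway were read beside these ligands. Of 17 receptor and receptor-turnover genes, 8 passed 1 FPKM, and 3 of these were at least 1.5-fold higher in αSMACreER;Foxf1 fl/fl and 0 lower, against 12.9% and 13.2% of all genes. These were the co-receptor Lrp6 (3.82 and 6.03 FPKM, 1.54-fold), the receptor Fzd4 (2.00 and 4.20, 2.01-fold) and Rnf43, a ubiquitin ligase that removes Wnt receptors (0.499 and 1.94, 3.35-fold, on about 20 and 89 reads). Rnf43 passed the filter only through αSMACreER;Foxf1 fl/fl. Lrp5 (23.6 and 22.5), Fzd7 (10.7 and 12.5) and Fzd1 (8.06 and 11.0) were the highest of the list and under 1.5-fold. Lrp6 no longer passed with the length trend removed (0.13, or 0.56 on the median transcript) or with a pseudocount of 1 (0.52), and the median of the 8 went from 0.31 to 0.063 and −0.030 under the length adjustments. A mean of 5 FPKM left 0 of the list past 1.5-fold, and without a filter 5 were higher and 1 lower. Of 11 secreted inhibitors 3 passed 1 FPKM. Sfrp2, a Wnt-binding protein made by fibroblasts, had 3.62 and 8.84 (2.36-fold higher), Notum, which inactivates Wnt proteins, had 2.17 and 0.533 (3.63-fold lower, about 43 and 12 reads), and Dkk3 had 3.14 and 2.96. Notum passed the filter only through Foxf1 fl/fl.

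Target genes of the pathway did not share a direction. Of 9 feedback targets, 6 passed 1 FPKM, 3 were at least 1.5-fold higher and 1 lower, against 12.9% and 13.2% of all genes. Tcf7 had 7.94 and 16.2 FPKM, Lef1 had 1.52 and 3.33, and both encode transcription factors that T cells also use. The remaining pair past 1.5-fold were Rnf43 and Notum. Each of this pair passed 1 FPKM only through the library in which it was higher, so the filter favoured such a difference. Axin2, the broadest target, had 1.16 and 1.60, a difference of 0.41, and Nkd1 had 2.94 and 3.01. Of 8 targets in central hepatocytes, 7 were matched and 6 passed. Cyp2e1 (94.3 and 26.9), Cyp1a2 (15.5 and 5.51) and Lect2 (9.68 and 3.41) were 3.57-fold, 2.83-fold and 2.84-fold lower, whereas Glul, the glutamine synthetase gene, was at 204 and 203 and Oat at 58.6 and 50.6. All 10 of the hepatocyte markers were at least 1.5-fold lower in the same library (9 with an equal FPKM sum), by a median of −1.39, among them Alb (2292 and 912), Ttr (322 and 86.8) and Apoa1 (261 and 84.2). The part of hepatocyte RNA in the values of Cyp2e1, Cyp1a2 and Lect2 was not tested.

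**Figure D3:**
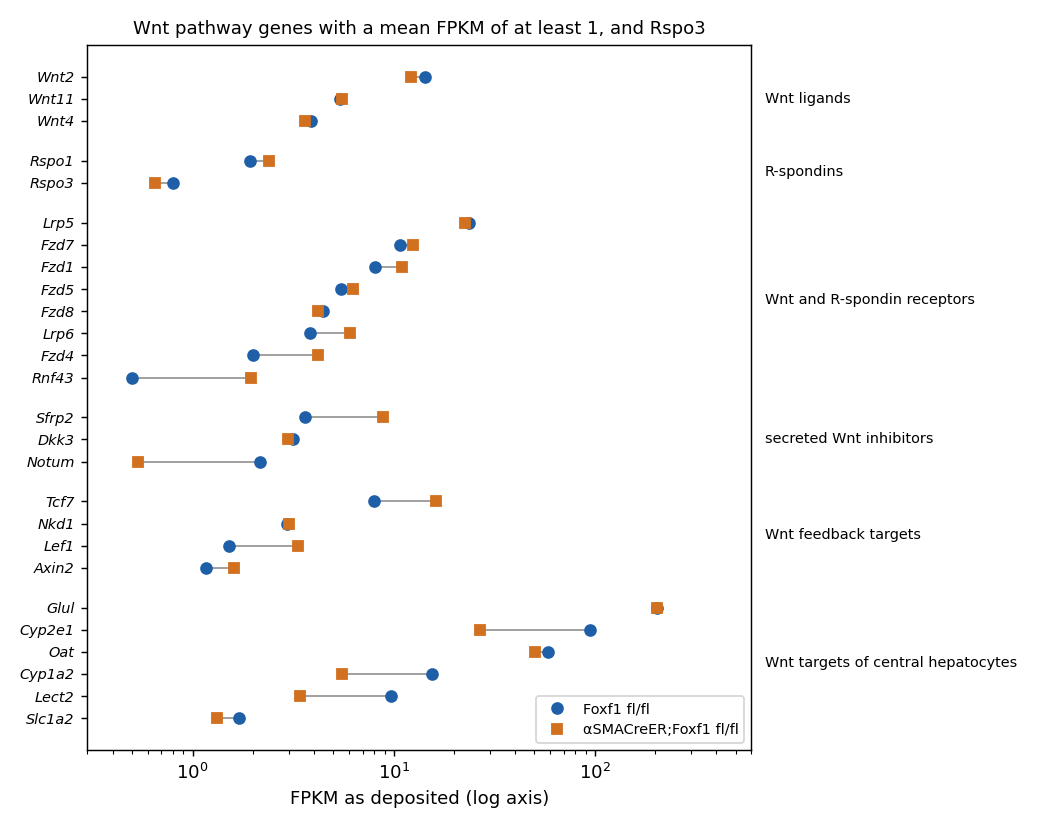
FPKM as deposited (log axis) of Wnt pathway genes with a mean of at least 1 FPKM, and of Rspo3, in Foxf1 fl/fl (circles) and αSMACreER;Foxf1 fl/fl (squares), grouped by role, with 1 library per genotype. A gene on 2 lists is drawn once. Wnt2 is the highest ligand at 14.3 and 12.1, and the widest gaps are at Rnf43, Notum, Cyp2e1, Cyp1a2 and Lect2.

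The wider endothelial lists give a setting for the 10 genes. Their counts stand beside 12.9% of all genes at least 1.5-fold higher and 13.2% lower. These shares were 21.9% and 8.72% with an equal FPKM sum, and 10.0% and 11.1% with the length trend removed. Of 15 other sinusoidal genes, all passed 1 FPKM, 1 was at least 1.5-fold higher in αSMACreER;Foxf1 fl/fl and 0 lower, with a median of 0.25, or −0.028 with the length trend removed. That gene was Sema6a, a semaphorin (4.11 and 8.30 FPKM, a difference of 0.97). With an equal FPKM sum 4 of the 15 were higher by 1.5-fold, and with the length trend removed 1 was higher and 1 lower. Ctsl, a cathepsin also made by macrophages, had 563 and 569, the inhibitory Fc receptor Fcgr2b had 217 and 262, and the fatty acid receptor Cd36 had 128 and 185. Of 21 pan-endothelial genes 2 were higher and 1 lower by 1.5-fold, with a median of 0.025 and levels from 5.50 to 229 FPKM in Foxf1 fl/fl. Named after their values were seen, these were the adhesion receptor Adgrl4 (21.5 and 35.6), the phosphatase Ptprb (15.5 and 25.6) and the tight junction claudin Cldn5 (121 and 72.1). With the length trend of the longest transcript removed 0 of the 21 passed 1.5-fold. On the median transcript length Adgrl4 (0.83) and Cldn5 (−0.75) still passed, and Ptprb (0.355) did not. With an equal FPKM sum 4 of the 21 were higher and 0 lower. Pecam1 was at 93.3 and 96.6, the junction cadherin Cdh5 at 98.4 and 113 and the angiopoietin receptor Tek at 13.8 and 18.8. Against Pecam1 within each library, the log2 change was −0.51 for Stab1, −0.49 for Clec4g, 0.37 for Stab2, 0.23 for Oit3 and 0.18 for Lyve1, so the members lay on both sides of it.

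Zonation and capillarization genes were read from the same libraries. On the central side of the sinusoid 4 of 6 genes passed 1 FPKM and 0 were past 1.5-fold, against 12.9% of all genes higher and 13.2% lower. Thbd had 48.7 and 64.7 FPKM and Kit 13.7 and 14.1. On the portal side 4 of 4 passed and 0 were past 1.5-fold, beside the same shares of all genes. Msr1 was at 127 and 162, Ltbp4 at 89.5 and 81.8 and Efnb2 at 9.76 and 13.7. Of 6 genes of capillarized or continuous endothelium, 1 was at least 1.5-fold higher and 0 lower, against 12.9% and 13.2% of all genes, with a median of −0.33. That gene was Vwf, the von Willebrand factor gene (4.14 and 7.15, 1.68-fold). With the length trend removed Vwf was at 0.26, so that 0 were higher and 1 lower, with a median of −0.17. On the median transcript length Vwf was at 0.69, still past 1.5-fold, so the 2 length adjustments disagreed on it. With an equal FPKM sum the median of the list was −0.13. Fabp4, Selp and Plvap, which were 415, 67.6 and 38.7 in Foxf1 fl/fl, were 305, 55.0 and 31.0 in αSMACreER;Foxf1 fl/fl. Among 6 lymphatic genes 2 passed 1 FPKM, Pdpn (58.1 and 73.9) and Flt4 (33.5 and 39.8), which other cells also express, while Prox1, the defining lymphatic factor, was at 0.573 and 0.737.

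Among angiocrine ligands outside the Wnt family, 6 of 6 passed 1 FPKM, 1 was at least 1.5-fold higher and 0 lower, against 12.9% and 13.2% of all genes. Bmp2, the endothelial signal for hepatocyte hepcidin together with Bmp6, had 44.7 and 50.5 FPKM, Angpt2 had 22.0 and 23.4, the Notch ligand Dll4 had 9.70 and 9.56, and Bmp6 had 8.42 and 8.88. Hgf, the hepatocyte growth factor gene, had 4.64 and 7.60 (1.60-fold higher), and stellate cells also transcribe it. Its log2 difference was 0.64 with the length trend removed, past 1.5-fold, and 0.49 on the median transcript length, which is under 1.5-fold. Within the hyaluronan list, 8 of 10 genes passed, 1 was at least 1.5-fold higher and 0 lower, beside the same shares of all genes. The higher gene was Has2, a hyaluronan synthase (0.852 and 1.48, on about 34 and 67 reads), which did not pass with a pseudocount of 1 (0.40) or with the length trend removed (0.52). Has2 passed the filter only through αSMACreER;Foxf1 fl/fl. Stab1, Cd44 (204 and 260) and Stab2 were the 3 highest genes of the list in αSMACreER;Foxf1 fl/fl. In the mannose receptor family Ly75, a dendritic cell antigen receptor, was 1.55-fold higher (4.34 and 6.89) but at 0.26 with the length trend removed, and Mrc2 (1.85 and 2.40) and Pla2r1 (3.45 and 3.56) were under 1.5-fold.

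**Figure D4:**
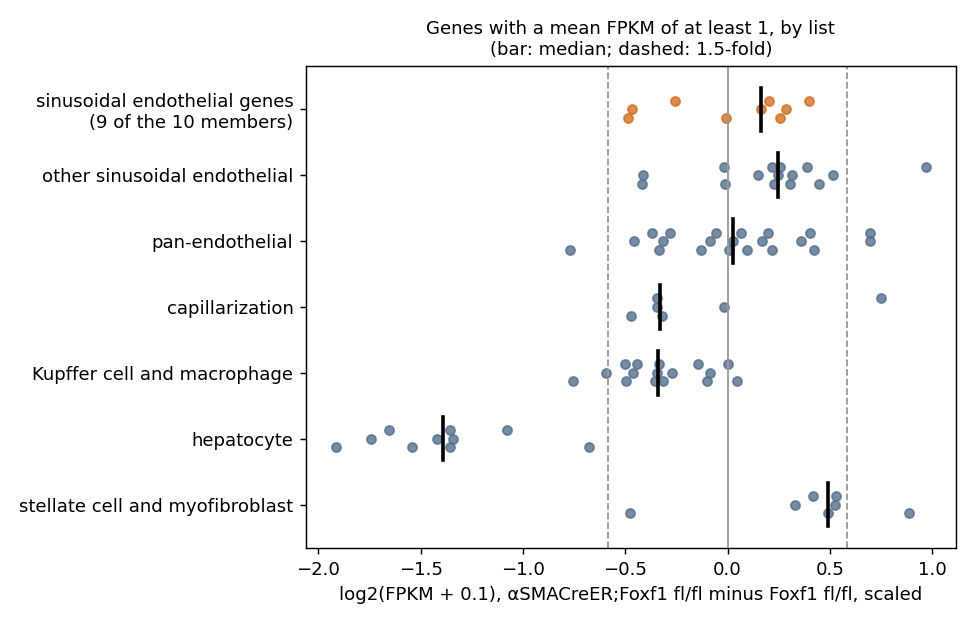
Difference between the libraries in log2(FPKM + 0.1), αSMACreER;Foxf1 fl/fl minus Foxf1 fl/fl after scaling, with 1 point per gene of at least 1 FPKM on average, a black bar at the median of each list and dashed lines at 1.5-fold. The 9 members and the 15 other sinusoidal genes centre on 0.16 and 0.25, the pan-endothelial list on 0.025, the macrophage list on −0.34 and the hepatocyte list on −1.39. The capillarization list centres on −0.33 and the stellate cell and myofibroblast list on 0.49.

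Mrc1 and Stab1 are also transcribed in macrophages, so the macrophage values are set beside them. Of 16 Kupffer cell and macrophage markers, 0 were at least 1.5-fold higher and 2 lower in αSMACreER;Foxf1 fl/fl, against 12.9% and 13.2% of all genes. Their median was −0.34, with levels from 30.0 to 3682 FPKM in Foxf1 fl/fl and from 18.1 to 3395 in αSMACreER;Foxf1 fl/fl. The pair lower by 1.5-fold were the Kupffer cell lectin Clec4f (1117 and 753) and the haemoglobin scavenger receptor Cd163 (30.0 and 18.1). Clec4f passed 1.5-fold narrowly (−0.59) and did not pass with values as deposited (−0.57), with upper-quartile scaling or with either length adjustment, and with an equal FPKM sum 0 of the 16 passed. Cd68 was at 646 and 679 and Adgre1 at 162 and 165, differences of 0.046 and 0.00082, and the other 14 were below 0. Stab1 over Clec4f was 0.374 and 0.403 in the 2 libraries, a log2 change of 0.11 (0.073 to 0.14). Stab1 over Pecam1 was 4.48 and 3.14, a log2 change of −0.51 (−0.59 to −0.44). The ratio to Clec4f depends on the marker picked, since the macrophage list ran from −0.75 (Cd163) to 0.046 (Cd68). Mrc1 differed in the opposite direction from Stab1, and Mrc1 over Stab1 was 0.185 in Foxf1 fl/fl and 0.316 in αSMACreER;Foxf1 fl/fl. The part of macrophage RNA in the Stab1 and Mrc1 values was not tested.

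Transcript length moved with the difference across all genes (Spearman's rho 0.45 over 12692 genes, which are not independent replicates). By length, the shortest 10% of genes had a median difference of −0.40 and the longest 10% a median of 0.42. Clec4g, with a longest transcript of 1442 bases, lay near the middle of genes of like length (above 33.1% of 635 genes of 1311 to 1592 bases). Stab2 did so too, above 40.3% of the 635 genes of 7777 bases or more. Stab1 was lower than most genes of its length, with 23 of those 635 genes below it (3.62%). With the median of each length group subtracted, Stab1 was at −0.98, past 1.5-fold, and Stab2 at −0.093, in the opposite direction from its unadjusted value. When the groups were built on the median transcript length instead, Stab1 was at −0.35 and Stab2 at 0.51. The part of transcript length in the difference between the paralogues was not tested. Their median transcript lengths were 1236 and 720 bases.

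**Figure D5:**
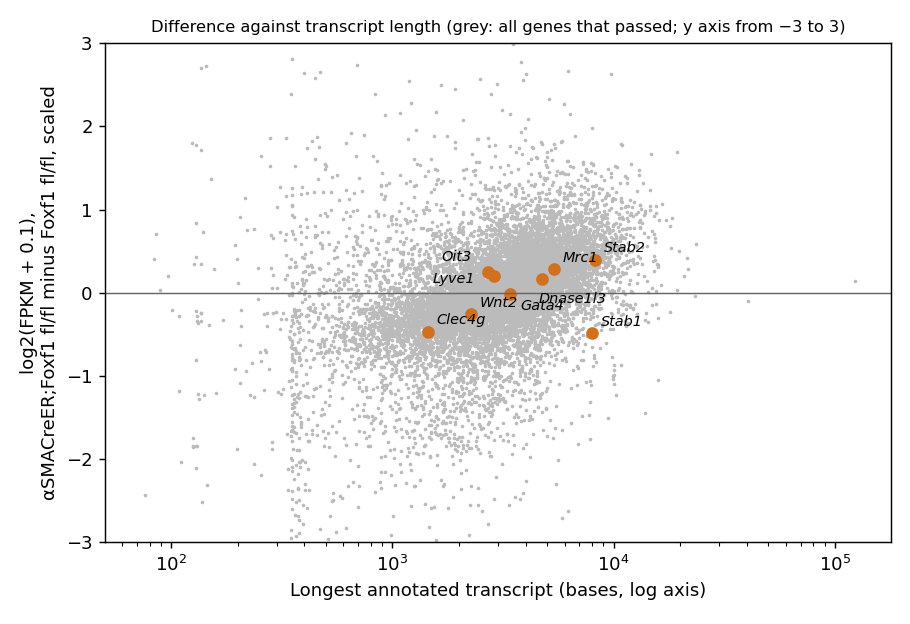
Difference between the libraries in log2(FPKM + 0.1), αSMACreER;Foxf1 fl/fl minus Foxf1 fl/fl after scaling, against the longest annotated transcript (log axis), for all genes that passed 1 FPKM (grey) and the 9 members that did (orange). The grey cloud rises with length, Stab2 at 0.40 lies within it and Stab1 at −0.49 lies below most genes of its length, and 204 genes fall outside the plotted range of −3 to 3.

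Reads from overlapping genes could enter some members, because strand-specific counting is not stated. Nt5dc2, on the opposite strand, overlaps Stab1 and was at 11.7 and 11.9 FPKM. Antisense genes overlap Stab2 and Clec4g, and each of them was at 3.21 FPKM or less. On Stab2, Gm16271 was listed at 0 in Foxf1 fl/fl and at 3.21 in αSMACreER;Foxf1 fl/fl. Gm16268 (0.768 and 0.486) and Gm16280 (0.279 and 0), also on Stab2, and Gm16553 (1.18 and 0.159), on Clec4g, were lower in αSMACreER;Foxf1 fl/fl. The part of such reads in the values of the members was not tested. Rspo3 overlaps Gm20276 and Gm48159, whose levels were not analysed here.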

How the data were processed

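RNA-seq values of adherent hepatic stromal cells from 1 pooled library per genotype were analysed. The libraries were made with the TruSeq kit and sequenced as single-end reads of 75 bases. The authors aligned reads with the Tophat/Cufflinks pipeline (versions not given in the sources used here; build mm10 per the submitters' processing notes) and deposited an FPKM value and a status per Ensembl gene. Counts and replicates were not used here, and 3 entries whose status was not OK were left out. Another quantification by the authors, against RefSeq with DESeq, was not used here.

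Identifiers were matched to GENCODE M21 (36490 of 38320 entries, 95.2%), and unmatched entries kept their identifier. For a symbol with several entries the highest was kept. Values were scaled by the median ratio of 12011 genes, and a pseudocount of 0.1, a filter at a mean of 1 FPKM and a fold of 1.5 (the threshold of the paper's methods) were used. No test was run. The spacing of low values gave read numbers, assuming fragments of 200 bases on the longest transcript, which overstates reads where shorter transcripts dominate. The procedure was tested on simulated data.

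The members and the 20 other gene lists were chosen with earlier results of these data known. Named genes were all members, genes of the other lists past 1.5-fold, the 3 highest of each pathway list and the first 3 of each cell type list, and further genes were named as examples after their values were seen. Alternatives changed the pseudocount, scaling, filter, fold, repeated symbols and length adjustment. Scripts ran in Python 3.11.15 (pandas 2.3.3, numpy 2.4.6, matplotlib 3.10.9 and scipy 1.17.1).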

Additional observations from a re-analysis of the deposited data

How the results depend on the processing

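No paired analysis was possible because there was 1 library on each side, and for the same reason no library could be left out. The counts of members at least 1.5-fold higher (0) and lower (0) did not move under the planned settings, except as follows. A fold of 2 or a stricter filter could not have raised a count of 0. Scaling to an equal FPKM sum, which moved the median of all genes to 0.21, gave 1 higher (Stab2, 0.60), against 21.9% of all genes. Removal of the length trend gave 1 lower (Stab1), against 11.1% of all genes. The median of the members, 0.16, moved to 0.37 with an equal FPKM sum, to 0.076 without a filter on low values (Rspo3 included) and to −0.043 with the length trend removed, or 0.0077 on the median transcript length, an alternative chosen after seeing the data. Over the 11 planned and 2 added alternatives, Stab1, Lyve1, Clec4g, Mrc1 and Oit3 kept their direction, although Mrc1 fell to 0.036 with the length trend removed. The changes of filter and of fold could not alter the value of a member, so those alternatives could neither turn a direction nor move a member past its interval. Stab1 moved past its counting interval in 7 of the 13 alternatives, Clec4g and Mrc1 in 4, and Lyve1 and Oit3 in 2. Scaled to the macrophage list, the other addition, Stab2 (0.74), Mrc1 (0.62) and Oit3 (0.60) passed 1.5-fold. That scaling moved the median of all genes to 0.34 and placed 31.0% of them at least 1.5-fold higher, so these calls came with a shift of all genes. Under it Stab1 was at −0.14 and Clec4g at −0.13, and Wnt2 turned to 0.080. Gata4, Dnase1l3, Stab2 and Rspo3 also took the opposite sign under at least 1 alternative. Of 239 medians of the other lists under alternatives, 7 changed sign, and of 480 list counts 59 moved by over 1.5 times. The median of the other sinusoidal genes turned to −0.028 with the length trend removed. Over all genes, 1662 were higher and 1697 lower by 1.5-fold, against 2820 and 1121 with an equal FPKM sum, 3983 and 897 scaled to the macrophage list, 3978 and 3304 without a filter, 692 and 953 at a mean of 5 FPKM or more, and 581 and 800 at a fold of 2. The causes were not tested beyond the adjustments themselves. Depth limits Rspo3 most, at about 21 reads.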
